A study of Mus musculus with 9 samples.

Results

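Skeletal muscle fibers form when mononucleated myoblasts (MB) recognize each other, adhere and merge their membranes into multinucleated myotubes (MT). The 8 protein-coding genes described here belong to that process and were followed across mouse gastrocnemius muscle (GAS) and cultured muscle cells: the fusogens Mymk and Mymx, the adhesion molecules Ncam1, Cdh2, Jam2 and Jam3, and the signaling genes Dock1 and Rac1. They were chosen by symbol, and all 8 matched an Ensembl identifier among the 46078 genes listed for the cultured cells and the 38293 genes listed for GAS, of which 36842 were in both.

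RNA sequencing covered 9 libraries from C57BL/6 mice. GAS came from young adult female animals (n = 3) and was sequenced from poly(A) RNA. Primary MB kept in growth medium received PBS alone as control (n = 2) or sodium-L-lactate in PBS at 10 mM (n = 2), and MT were the same kind of cells after 3 days in differentiation medium (n = 2, control). The cultured cells were sequenced from 5 ng of RNA with Smart-seq2, a full-length protocol for low input that amplifies the cDNA. The labels call the samples of a group biological replicates without saying whether these came from separate animals or isolations, so p-values measure the spread between these samples.

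Fusion needs contact first and a merger of lipid bilayers second. Cadherins, immunoglobulin-type adhesion molecules and junctional adhesion molecules hold the cells together, and the exchange factor Dock1 activates the GTPase Rac1, which remodels actin at the contact site. Myomaker (Mymk), a multipass membrane protein, and myomixer (Mymx, also called myomerger or minion), a micropeptide, are muscle-specific and carry out the membrane merger.

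The coding sequences of both fusogens are shown because they differ in size. Levels of different genes are compared below per exonic length (1511 bases for Mymk and 1027 for Mymx), not per coding length. The sequences were taken from GENCODE M21 transcripts (GRCm38, the assembly also called mm10), minus strand in both cases. The whole coding sequence of Mymx, 255 bases including the stop codon at chr17:45601417-45601671, lies in 1 exon and holds 84 codons before the stop. That of Mymk has 666 bases in 5 coding exons and 221 codons before the stop, and its first 120 bases at chr2:27071896-27072015 are given. Capitals mark the start codon and, for Mymx, the stop codon.
Mymx: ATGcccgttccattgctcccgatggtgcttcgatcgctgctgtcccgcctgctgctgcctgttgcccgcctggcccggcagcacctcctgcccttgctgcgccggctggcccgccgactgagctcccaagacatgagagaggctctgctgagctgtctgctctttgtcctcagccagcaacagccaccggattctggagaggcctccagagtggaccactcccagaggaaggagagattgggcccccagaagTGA
Mymk: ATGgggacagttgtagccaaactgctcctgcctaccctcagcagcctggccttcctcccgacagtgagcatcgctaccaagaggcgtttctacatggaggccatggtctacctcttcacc

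Cultured libraries held between 5198247 and 10839516 counted reads and GAS libraries between 19307793 and 19941574. Fiber genes followed the labels. The fiber list (Myh4, Myh1, Myh2, Ckm, Acta1 and Mb) summed to between 31.6 and 58.5 CPM (counts scaled by the TMM-adjusted library size) in MB, between 7374 and 7600 CPM in MT and between 111798 and 122494 CPM in GAS, and Myh4 and Myh2 had 0 counts in both MB libraries. MT replicate 1 stood apart in breadth, with at least 1 count for 28599 genes against 15548 to 17965 in the other 5 cultured libraries. MB replicate 1 and lactate-treated MB replicate 1 carried 9.20% and 13.8% of their reads on 1 ribosomal RNA gene model (CT010467.1), against at most 0.575% in the other cultured libraries.

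To ask which fusion genes differed between MT and MB, counts were compared with edgeR's quasi-likelihood test over 12921 genes, and a gene was called at an adjusted p under 0.05 with an absolute log2 fold change (log2FC) above 0.5. Of the 8 members, 4 were called higher in MT (Mymk, Mymx, Ncam1 and Jam2), where 11% of all genes tested were called higher. None of the members was called lower by edgeR (0 of 8, against 6.86% of all genes tested). DESeq2 called 2 lower (Cdh2 and Rac1), and over all 12921 genes it called 3021 in either direction, against 2312 with edgeR. An unadjusted p under 0.05 in edgeR was found for 6 of the 8 members and for 4197 of the 12921 genes tested. In bulk RNA, as here, fewer cells of a type and less RNA per cell cannot be told apart. The median log2FC was 1.22 over the 8 members and 0.07 over all genes tested. Libraries differed in another cell type's genes alongside these calls: the 5 fibroblast markers (Pdgfra, Dcn, Col1a1, Col3a1, Thy1) summed to between 234 and 473 CPM in MB and between 14562 and 24026.5 CPM in MT. Of these, Dcn, Col1a1 and Col3a1 were called higher in MT, Pdgfra was not called, and Thy1 had at most 1 count in any MB or MT library. Their part in the results below was not tested.

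**Figure D1:**
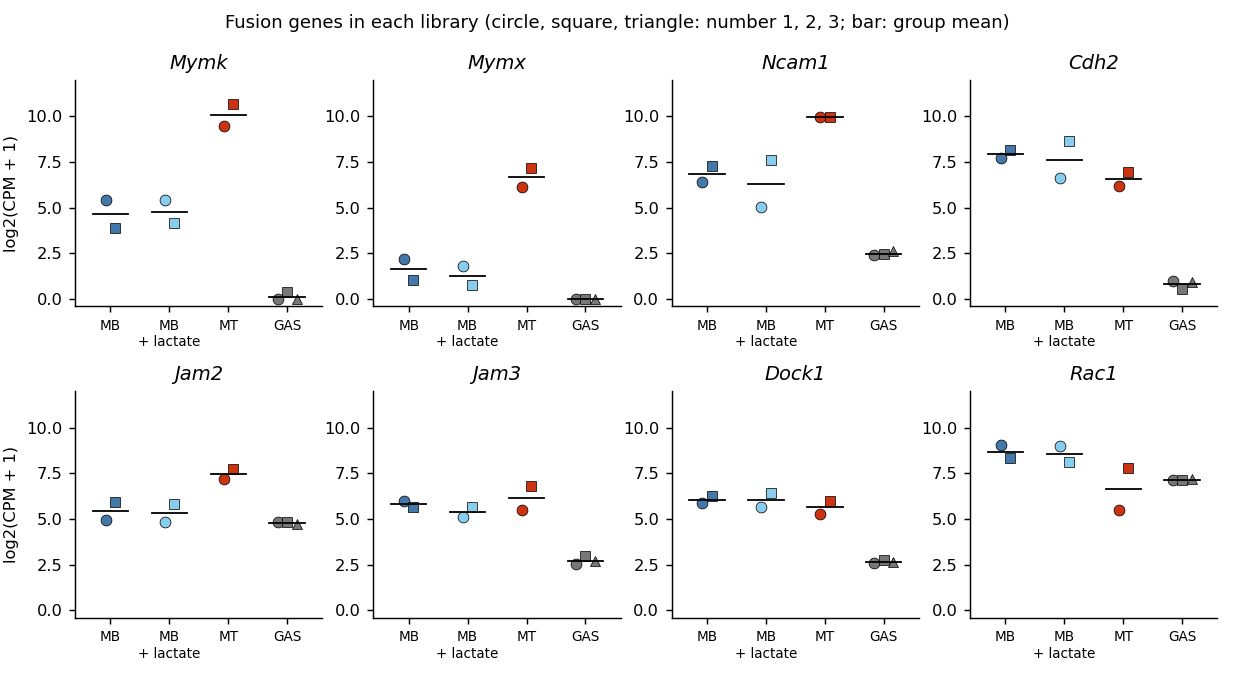
Level of each of the 8 fusion genes in every library, as log2(CPM + 1), for MB, lactate-treated MB, MT and GAS; each symbol is 1 library and each bar the mean of the log2 values of a group. Mymk, Mymx, Ncam1 and Jam2 sat higher in both MT libraries than in any MB library, and Mymk and Mymx were at or near 0 in the 3 GAS libraries.

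Among the 8 genes the fusogens had the largest log2FC. Mymk (ENSMUSG00000009214, chr2:27061636-27072179) stood at 41.8 and 14.0 CPM in MB replicates 1 and 2 and at 720.4 and 1655 CPM in MT replicates 1 and 2. No MT library came near an MB library, yet the MB libraries also differed from each other. The log2FC was 5.34 ± 0.78 (SE), a 40.6-fold difference (adjusted p = 0.00145, edgeR). Without MT replicate 2 the log2FC was 4.70 and without MB replicate 1 it was 6.44.

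Mymx (ENSMUSG00000079471, chr17:45600971-45602102) was the scarcer fusogen, with 29 and 9 reads in MB, or 3.55 and 1.08 CPM. In MT it reached 941 and 1136 reads, or 70.1 and 144 CPM. Both groups again lay far apart, and the library with more Mymk was in each group also the one with more Mymx. The log2FC was 5.47 ± 0.71 (44.2-fold, adjusted p = 0.000737, edgeR), ranging from 4.80 without MB replicate 2 to 6.65 without MB replicate 1. Scaled by exonic length as RPKM (CPM divided by the exonic length in kilobases), Mymk exceeded Mymx 7.99-fold and 8.76-fold in MB and 6.99-fold and 7.79-fold in MT. In lactate-treated MB, where Mymx had 14 and 4 reads, the ratio was 11.5 and 16.1.

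Among the adhesion molecules, Ncam1 (ENSMUSG00000039542, chr9:49502136-49798925), an immunoglobulin-type cell adhesion molecule, had the largest difference. Its level was 82.6 and 152 CPM in MB and 996 CPM in both MT libraries. MT replicates were almost equal for this gene, in contrast to the fusogens, and lay above both MB libraries. The log2FC was 3.11 ± 0.55 (8.64-fold, adjusted p = 0.00399, edgeR). A stretch of 417 exonic bases overlaps Gm11149 on the other strand, which had at most 30 reads in any library.

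Cdh2 (ENSMUSG00000024304, chromosome 18) encodes N-cadherin, a calcium-dependent adhesion molecule of myoblast contacts. It stood at 208 and 289 CPM in MB and at 70.5 and 124 CPM in MT. The groups did not overlap, with both MT libraries below both MB libraries, but the estimate missed the threshold. The log2FC was -1.36 ± 0.45 (95% interval -2.37 to -0.36, adjusted p = 0.0617, edgeR), and it passed without MB replicate 1 (log2FC -1.53, adjusted p = 0.0318). In RPKM, Ncam1 amounted to 0.37 and 0.49 times the Cdh2 level in MB and to 13.1 and 7.47 times that level in MT, so the more abundant of these adhesion molecules was not the same one in the 2 states.

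Jam2 and Jam3 encode junctional adhesion molecules B and C, which bind each other across cells. Jam2 (ENSMUSG00000053062, chr16:84774123-84825928) was at 30.3 and 60.1 CPM in MB and at 148 and 213 CPM in MT. Both MT libraries exceeded both MB libraries, and the log2FC was 2.01 ± 0.47 (4.02-fold, adjusted p = 0.0150, edgeR). This call rested on MT replicate 2, without which the log2FC was 1.79 with an adjusted p of 0.0738. Jam2 is also known from endothelial cells, whose 5 markers (Pecam1, Cdh5, Kdr, Tek, Esam) summed to 0.490 and 0.241 CPM in MB and to 11.5 and 0.254 CPM in MT replicates 1 and 2, and their part in the Jam2 level was not tested. All 5 had reads in MT replicate 1 and 1 of 5 in MT replicate 2. Jam3 (ENSMUSG00000031990, chr9:27097384-27155421) was at 62.3 and 48.6 CPM in MB and at 44.3 and 111 CPM in MT. Here the groups overlapped, since MT replicate 1 had the lowest and MT replicate 2 the highest value. The log2FC of 0.44 ± 0.50 did not pass (95% interval -0.66 to 1.54, adjusted p = 0.580, edgeR) and turned to -0.28 without MT replicate 2. Jam2 came to 0.26 and 0.66 times the Jam3 level in MB and to 1.77 and 1.02 times that level in MT, in RPKM. Of the exonic bases of Jam3, 1159 overlap Gm48796 on the other strand, whose reads are not given here.

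The signaling pair showed no called difference. Dock1 (ENSMUSG00000058325, chr7:134670654-135173639), the exchange factor, was at 56.7 and 74.7 CPM in MB and at 38.2 and 63.5 CPM in MT. The groups overlapped, and the log2FC was -0.38 ± 0.44 (95% interval -1.35 to 0.59, adjusted p = 0.591, edgeR). Rac1 (ENSMUSG00000001847, chr5:143503634-143528036), its GTPase target, was at 526 and 322 CPM in MB and at 44.7 and 223 CPM in MT. Both MT libraries lay below both MB libraries, but the MT libraries differed 4.99-fold from each other, more than for any other member (1.00-fold to 2.50-fold). The log2FC was -1.73 ± 0.67 (95% interval -3.23 to -0.24, adjusted p = 0.103, edgeR). The result moved with single libraries and with the method. The log2FC was -3.21 without MT replicate 2, -2.11 without MB replicate 2 and -1.02 without MT replicate 1. With no library left out, Rac1 was called lower with the replicate block (adjusted p = 0.0436, edgeR), DESeq2 (0.0390) and no filter on low counts (0.0397, edgeR). It was not called with RLE scaling (0.112), at least 10 counts in every library (0.115) or all 6 cultured libraries in 1 fit (0.130, edgeR for all of these). Of the 4496 exonic bases of Rac1, 2309 overlap Daglb on the other strand, which had between 77 and 217 reads in the cultured libraries.

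**Figure D2:**
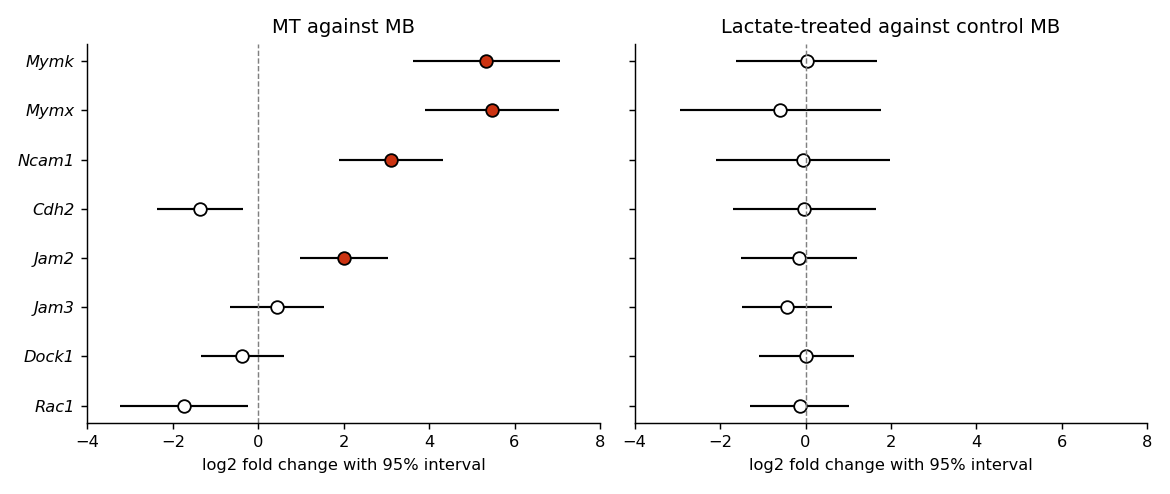
Log2 fold change (x axis) of each of the 8 genes with its 95% interval, for MT against MB and for lactate-treated against control MB, each from 2 libraries per group; filled points were called. In MT the intervals of Mymk, Mymx, Ncam1 and Jam2 lay above 0 and those of Cdh2 and Rac1 below 0 without a call after adjustment, while all 8 intervals of the lactate comparison spanned 0.

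Put on the length-scaled level, the order of the 8 genes was rearranged. In MB, Rac1 led with 94.3 ± 32.0 RPKM (SD, n = 2), followed by Cdh2 at 30.8 ± 7.14 and Mymk at 18.5 ± 13.0 RPKM. Jam3 (17.3 ± 3.02 RPKM), Ncam1 (13.5 ± 5.67 RPKM), Jam2 (7.48 ± 3.49 RPKM) and Dock1 (7.05 ± 1.36 RPKM) came next, and Mymx was last at 2.26 ± 1.70 RPKM. In that order only the steps from Rac1 to Cdh2 and from Dock1 to Mymx exceeded the range of the libraries. In MT, Mymk led with 786 ± 437 RPKM and was the 30th most abundant of 29014 genes with a count. Ncam1 (115 ± 0.0545 RPKM, place 423) and Mymx (104 ± 51.2 RPKM, place 477) followed and could not be separated from each other. Rac1 (29.8 ± 28.1 RPKM), Jam2 (29.8 ± 7.59 RPKM), Jam3 (24.2 ± 14.7 RPKM) and Cdh2 (12.1 ± 4.70 RPKM) overlapped with their neighbors, and Dock1 was lowest at 5.45 ± 1.91 RPKM. With the longest transcript as length, Jam3 moved ahead of Mymk in MB and Jam2 and Jam3 ahead of Rac1 in MT.

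As a share of the summed RPKM of the 8 genes, Rac1 made up 54.7% and 42.5% in MB, and Mymk made up 66.1% and 73.4% in MT. The sum itself was 214 and 169 RPKM in MB and 721 and 1493 RPKM in MT.

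**Figure D3:**
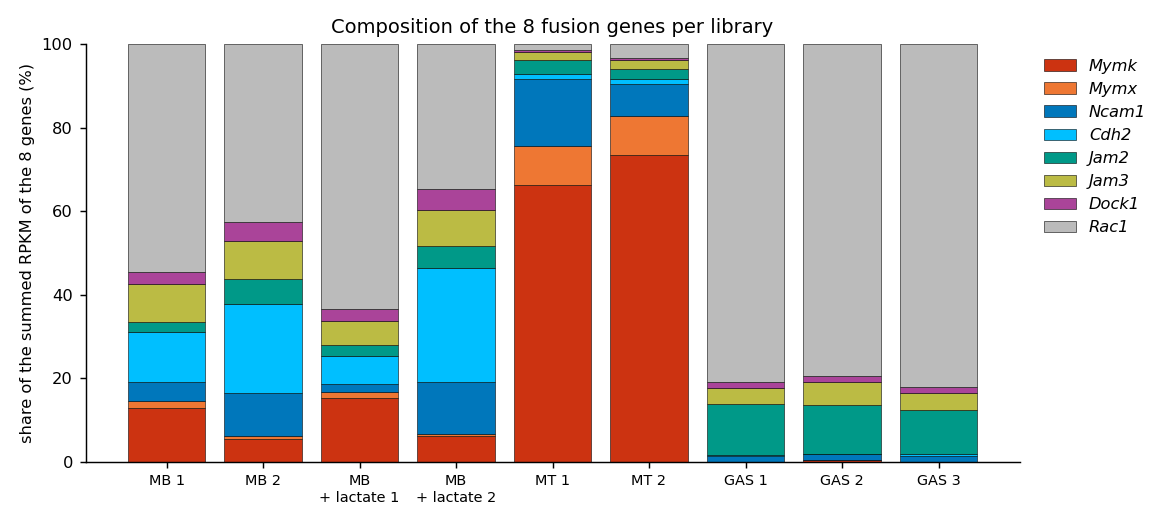
Share (%) of each gene in the summed RPKM of the 8 fusion genes, 1 bar per library. Rac1 took the largest share in MB, lactate-treated MB and GAS, with 79.4% to 82.0% in the GAS libraries, and Mymk took the largest share in both MT libraries.

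Beyond the 8 genes, 54 further genes of myoblast fusion were read from the same fit, in lists of surface proteins, receptors and ligands (22 genes), Rac activation and actin remodeling (22 genes) and membrane trafficking and lipid exposure (10 genes). Of the 49 tested, 7 were called higher in MT and 0 lower by edgeR, against 11% and 6.86% of all genes tested. DESeq2 also called 0 of them lower, with 3021 of all 12921 genes called in either direction. The median log2FC of the 49 was 0.23. In edgeR, 14 of the 49 had an unadjusted p under 0.05 in either direction, against 4197 of the 12921 genes tested. Of the 17 surface genes tested, 4 were called higher. Cd36, a fatty acid and scavenger receptor, had 0.37 and 0 CPM in MB and 55.2 and 42.5 CPM in MT. The integrin alpha subunits Itga9 and Itga4 had at most 2 reads in each MB library, and reached 11.2 and 3.82 CPM and 14.0 and 3.31 CPM in MT replicates 1 and 2. For both integrins the MT library with counts for most genes was the higher one, and both stayed called without it (adjusted p = 0.0116 for Itga9 and 0.0446 for Itga4, edgeR). Cd164, a sialomucin, passed narrowly (log2FC 1.65 ± 0.49, adjusted p = 0.0400, edgeR) and lost its call without either MT library or without MB replicate 1 (adjusted p between 0.117 and 0.206, edgeR), with the replicate block (0.0847) and with no filter on low counts (0.0640). The receptors Adgrb1 and Adgrb3 and the nephrin gene Nphs1 had 0 counts in both MB libraries and in MT replicate 2 and were not tested.

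In the Rac and actin list, 1 of 22 genes was called, where 17.9% of all genes tested were called in either direction. Elmo1, which encodes a partner of Dock1 in exchange activity, went from 1.35 and 3.01 CPM in MB to 15.0 and 13.2 CPM in MT (log2FC 2.72 ± 0.68, adjusted p = 0.0207, edgeR). Without MT replicate 1 its adjusted p was 0.0689. Its relative Elmo2 was more abundant, with 138 and 115 CPM in MB and 143 and 133 CPM in MT. Elmo2 was not called (log2FC 0.12 ± 0.42, adjusted p = 0.877, edgeR). The 21 genes other than Elmo1, among them Elmo2, Cdc42, Rhoa and the actin nucleation genes Actr2 and Actr3, had log2FC between -1.14 and 1.00. The list median was 0.11. In the membrane list, 2 of 10 genes were called, both higher. Cav3, the muscle caveolin, had 1.47 and 0.60 CPM in MB and 136 and 217 CPM in MT (log2FC 7.36 ± 0.66, adjusted p = 0.000117, edgeR). Dysf, a ferlin known for membrane repair, had 5.02 and 3.62 CPM in MB and 37.9 and 71.0 CPM in MT (log2FC 3.62 ± 0.57, adjusted p = 0.00222, edgeR). The list median was -0.35, of the opposite sign to its called genes.

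**Figure D4:**
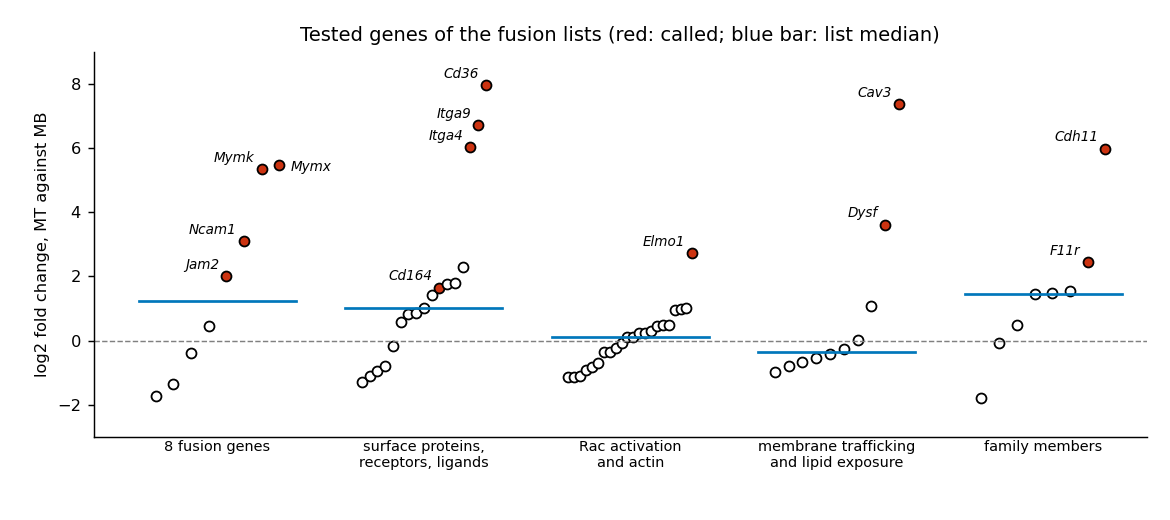
Log2 fold change in MT against MB (y axis) of every tested gene in the 8 fusion genes, the 3 lists of further fusion genes and the list of family members; each point is 1 gene, called genes are filled and named, and the bar is the list median. All called genes lay above 0, and the points of the Rac and actin list other than Elmo1 lay between -1.14 and 1.00.

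Close relatives of the 8 genes were also examined, because members of a family can stand in for one another or share reads. Of 14 relatives, 8 were tested and 2 called, both higher, where 11% of all genes tested were called higher. Cdh11, a cadherin of mesenchymal cells, had 3.43 and 4.70 CPM in MB and 180 and 342 CPM in MT (log2FC 5.99 ± 0.56, adjusted p = 0.000142, edgeR), the direction opposite to the Cdh2 estimate. F11r, which encodes junctional adhesion molecule A, had 6.37 and 9.64 CPM in MB and 49.6 and 36.9 CPM in MT (log2FC 2.46 ± 0.52, adjusted p = 0.00972, edgeR), and its adjusted p was 0.0749 without MT replicate 1. Rac2, Dock2, Ncam2 and Cdh4 had 0 counts in both MB libraries and in MT replicate 2, and between 0.0745 and 5.66 CPM in MT replicate 1. Dock5, the relative of Dock1 also linked to fusion, was at 12.9 and 16.5 CPM in MB and 20.0 and 21.1 CPM in MT and was not called (log2FC 0.49 ± 0.50).

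Lactate-treated MB were compared with control MB to ask whether overnight lactate altered the fusion genes, with the same control libraries as in the MT comparison. None of the 8 members was called (0 of 8), as was the case for 0% of the 11804 genes tested, at the adjusted threshold and at a nominal p under 0.01 with an absolute log2FC above 0.5. Over all genes, edgeR gave 5 and DESeq2 gave 3 with an unadjusted p under 0.05, and none among the members. These fits had no replicate block, so differences by replicate number entered their spread. With the block, edgeR gave 166 genes with an unadjusted p under 0.05, again none among the members. The SE was then 0.29 instead of 0.68 for Mymk and 0.37 instead of 0.69 for Cdh2. The few small p-values and the intervals below therefore cannot show that lactate had no effect. All adjusted p-values of the members were 1.00 (edgeR).

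Mymk was at 41.6 and 16.9 CPM in lactate-treated replicates 1 and 2, next to 41.8 and 14.0 CPM in the controls. The groups were interleaved and the log2FC was 0.02, with a 95% interval from -1.64 to 1.68. Mymx, with 14 and 4 reads, was at 2.46 and 0.71 CPM, and its log2FC of -0.59 had the widest interval, from -2.95 to 1.77.

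Ncam1 and Cdh2 varied more between the lactate-treated libraries than between groups. Ncam1 was at 31.4 and 194 CPM after lactate (log2FC -0.07, 95% interval -2.10 to 1.97) and Cdh2 at 96.3 and 395 CPM (log2FC -0.03, 95% interval -1.71 to 1.65). In each case the treated libraries lay on either side of both controls. The Ncam1 to Cdh2 ratio in RPKM was steadier, with 0.30 and 0.46 after lactate against 0.37 and 0.49 in the controls.

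The remaining members had narrower intervals. Jam2 was at 28.1 and 54.8 CPM after lactate (log2FC -0.15, 95% interval -1.50 to 1.21) and Jam3 at 33.6 and 49.8 CPM (log2FC -0.44, 95% interval -1.49 to 0.62). Dock1 was at 49.2 and 85.7 CPM (log2FC 0.01, 95% interval -1.10 to 1.12) and Rac1 at 514 and 279 CPM (log2FC -0.14, 95% interval -1.30 to 1.02). Treated and control libraries overlapped for all 4 of these genes.

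For most members the MB libraries, treated or not, differed by replicate number. Mymk, Mymx and Rac1 were higher in both libraries numbered 1 than in both numbered 2, and Ncam1, Cdh2, Jam2 and Dock1 were lower, 7 of 8 members in all. The same held for 72% of the 11804 genes, and the libraries numbered 1 were those with more reads on the ribosomal RNA gene model. Whether the number stands for a culture, animal or day is not given in the sources used here.

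Among the 54 further fusion genes, 45 were tested after lactate and 0 called. The 13 surface genes tested had log2FC between -0.83 and -0.07, all below 0, while the median of all genes tested was -0.0034. Between 8 and 12 of the 13 were below 0 when single libraries were left out. With no filter on low counts 16 of 19 were below 0, and with all 6 cultured libraries in 1 fit 15 of 17. These genes were read from the same libraries and are not independent. The smallest unadjusted p among the 13 was 0.177 (edgeR).

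In GAS the fusion genes formed another order. GAS libraries were made by another protocol and scaled separately, so their levels were not tested against the cultured cells. Rac1 was by far the most abundant with 30.7, 31.2 and 32.8 RPKM in the 3 libraries, above 94.7% of the 19415 genes with a count. Daglb, which shares exonic bases with Rac1, had between 344 and 347 reads there next to 2715 to 2840 reads of Rac1. Jam2 followed with 4.59, 4.55 and 4.24 RPKM (4.46 ± 0.192, SD, n = 3) and Jam3 with 1.49, 2.14 and 1.69 RPKM (1.77 ± 0.330), and these 3 were the only members over 1 RPKM.

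Dock1 (0.575 ± 0.0427 RPKM) and Ncam1 (0.535 ± 0.0453 RPKM) were not separable from each other. Cdh2 was at 0.0952 ± 0.0339 RPKM, from 9 to 19 reads per library. The fusogens had the lowest means. Mymk had 0, 6 and 0 reads and Mymx 0 reads in each library, where 3 reads correspond to between 0.152 and 0.156 CPM. At 0.201 RPKM in GAS replicate 2, Mymk lay above Cdh2 in every library, so these 2 genes overlapped, and without GAS replicate 1 or 3 the Mymk mean of 0.101 RPKM passed that of Cdh2 (0.0829 and 0.0880 RPKM). With all 3 libraries the GAS order was the same with the longest transcript as length, and 3 members stayed over 1 RPKM whichever GAS library was left out. The 5 endothelial markers summed to between 145 and 161 CPM in GAS, and their part in the Jam2 level there was not tested.

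Finally, the genes whose profile over the 6 cultured libraries was most like that of each member were listed, by the root mean square difference of centered log2(CPM + 1) values among 13066 genes. The libraries fall into groups, so the measure is a description and no correlation was computed. For Mymk the nearest were Tnnt1 (difference 0.18), Mymx (0.25), Pgam2 (0.30), Gprc5c (0.32) and Pygm (0.34). For Mymx they were Tnnt1 (0.24), Mymk (0.25), Gprc5c (0.27), Actc1 (0.31) and Pgam2 (0.34). Each fusogen was thus the second nearest gene of the other among 13065, and Tnnt1, which encodes slow skeletal troponin T, was the nearest of both.

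No other pair of members came as close. Seen from Mymk, Ncam1 was in place 831 and Jam2 in place 1167, whereas Cdh2 and Rac1 were in places 11911 and 12443. The nearest genes were Sulf1, Ankrd44 and Fbxw7 for Ncam1 (0.36 each), Prrc2c, Ylpm1 and Gpr161 for Cdh2 (0.19 to 0.23), and Serinc3, Ostm1 and Tmx4 for Jam2 (0.080 to 0.105). For Jam3 they were Nacc2, Chpf2 and Rbfox2 (0.12 to 0.13), for Dock1 Xpnpep3, Mars2 and Lsm14b (0.051 to 0.068), and for Rac1 Hist1h4i, Rps15a and Sh2b3 (0.13 to 0.20).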

How the data were processed

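RNA-seq of 9 mouse libraries was used (GAS n = 3; MT, control MB and lactate-treated MB n = 2 each), grouped by the labels. The deposited tables hold raw read counts for each gene: the authors trimmed reads with Trim Galore 0.6.6, aligned them to mm10 with HISAT2 2.2.1 and counted them with featureCounts of Subread 2.0.1. The annotation release, the handling of strand and that of reads with several alignments are not given in the sources used here, so reads of genes overlapping on opposite strands, or of close relatives, cannot be divided with certainty. Smart-seq2 amplifies cDNA without molecular identifiers, so amplified copies of a molecule cannot be told from separate molecules. The intervals rest on the spread between these libraries and cover these libraries only. Names, coordinates and union exon lengths came from GENCODE M21.

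Counts were normalized by TMM, cultured cells and GAS separately, and given as CPM and RPKM with SD. Each comparison was fitted in edgeR 4.0.16 (R 4.3.3) on the 4 libraries of its 2 groups, without a replicate block, over genes kept by filterByExpr, with Benjamini-Hochberg adjustment over all genes tested. SE was taken as the absolute log2FC over the square root of F. The fit was tested on simulated counts that held no differences by replicate number, so that test does not cover such differences in these libraries. Alternatives were DESeq2 1.42.0, RLE scaling, other filters and thresholds, all 6 cultured libraries in 1 fit, a replicate block and leaving out each library. Tables and figures used Python 3.11.15, numpy 2.4.6, pandas 2.3.3 and matplotlib 3.10.9.

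Named were all 8 members, up to 4 called genes per direction of each list, genes at 0 counts in all libraries of a group, close relatives, and the 5 (fusogens) or 3 (other members) nearest profiles. The members and lists were chosen with earlier results of these data known. The Schwann cell, leukocyte, smooth muscle, adipocyte and cell cycle lists gave, in the MT comparison, 0 of 1, 1 of 2, 1 of 2, 0 of 0 and 0 of 5 tested genes called higher, and 4 cell cycle genes were called lower.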

Additional observations from a re-analysis of the deposited data

How the results depend on the processing

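With 2 libraries per group, the counts of calls moved with single libraries more than with the scaling. Members called higher in MT stayed at 4 under every alternative except without MT replicate 2 (3 members) and with at least 10 counts in every library, where Mymx was not tested (3 members), and at an adjusted p under 0.01 (3 members). Members called lower in MT, 0 as reported, were 1 with the replicate block (Rac1), 2 with DESeq2 (Cdh2 and Rac1), 1 with no filter on low counts (Rac1), and 0 to 1 when single libraries were left out. Further fusion genes called higher, 7 as reported, were 3 with at least 10 counts in every library (fewer genes tested), 4 at an adjusted p under 0.01, and 5 (without MT replicate 1) to 10 (without MB replicate 2) when single libraries were left out; those called lower were 0 to 1. Genes called in MT over all genes, 2312 as reported, were 1444 with at least 10 counts in every library, 968 at an adjusted p under 0.01, and 1244 (without MT replicate 1) to 3584 (without MB replicate 2) when single libraries were left out; the cause was not tested.

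The log2FC in MT with single libraries left out ranged from -0.28 to 0.91 for Jam3, the only member whose direction turned in that comparison. In the lactate comparison no member was called under any alternative, and directions turned when single libraries were left out, with log2FC ranging from -0.70 to 1.11 for Mymk, -1.66 to 0.59 for Mymx, -1.97 to 0.75 for Ncam1, -1.44 to 0.69 for Cdh2, -0.76 to 0.44 for Jam2, -0.49 to 0.40 for Dock1 and -0.58 to 0.35 for Rac1; Jam3 stayed below 0. The replicate block turned Dock1 to -0.0359.

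The replicate numbers are only numbers in the labels. Deviations of same-numbered libraries correlated at r = 0.70 over 11804 genes for MB and lactate-treated MB and at r = -0.13 over 12921 genes for MT and MB (across genes, which are not independent replicates). With the replicate block, 2271 genes were called in MT and 0 after lactate, where 13 passed the nominal rule against 0 without it. With crossed numbers as a block, an alternative chosen after seeing the data, 1 member was called lower in MT. With a pseudocount of 0.5, 3 of the 5 nearest genes of Mymk and 3 of the 5 of Mymx were the same genes.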

Other observations

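The further fusion genes called in MT were also read in GAS, scaled separately and with no test against the cultured cells. Cd36 was at 142, 194 and 178 CPM in the 3 GAS libraries and Dysf at 69.4, 68.2 and 69.0 CPM. Cav3 was at 38.4, 42.6 and 33.0 CPM, Itga4 at 33.5, 27.2 and 24.4 CPM and Itga9 at 16.2, 12.5 and 15.1 CPM. Cd164 was at 106, 103 and 110.0 CPM. Elmo1 was lower, at 2.08, 2.78 and 1.71 CPM. Of the family members, Cdh11 was at 0.965, 0.759 and 0.934 CPM in GAS, and Cdh4, with 0 counts in MB, was at 32.3, 10.0 and 15.7 CPM.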
